A study of Homo sapiens with 70 samples.

Results

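The MYC network genes followed here were MYC, its partner MAX, and the genes MXD1, MXD3, MXD4, MXI1, MNT and MGA, whose proteins share MAX as a partner. They were chosen by gene name, and all 8 were found among the 78932 genes of the deposited table. Every one of the 8 passed the filter on low counts in every fit.

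MYC is a transcription factor that binds DNA as a heterodimer with MAX, most strongly at the E-box sequence CACGTG, and raises the transcription of genes for ribosome production, nucleotide synthesis and growth. MXD1, MXD3, MXD4, MXI1 and MNT also pair with MAX and bind the same sites, where they recruit the SIN3 and histone deacetylase corepressor and oppose MYC. MGA pairs with MAX as well and is the scaffold of a Polycomb repressor complex called PRC1.6.

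The cells were MIA PaCa-2, an established line of pancreatic ductal adenocarcinoma, and were resistant to sotorasib, an anticancer drug. All cells carried dCas9-KRAB, a dead Cas9 fused to a repressor domain, made upon addition of doxycycline (DOX). Cells carried 1 of 3 guide RNAs: sgZBTB11 #1 and sgZBTB11 #2, against the gene ZBTB11, or sgNS, the control. Each line received DOX or its vehicle DMSO and was collected at 5 hr, day 1, day 3 and day 5. Poly(A) RNA was sequenced from 70 libraries in 24 groups of 3, except sgZBTB11 #1 with DMSO at day 5 and sgNS with DMSO at day 1, which had 2. Whether replicate libraries stem from separate cultures is not stated in the labels; the p-values therefore describe the spread among libraries, and that spread may be technical. Neither the DOX dose nor whether a guide line is a clone or a pool is given in the sources used here.

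Total counts per library were 12068833 to 20627648. Of the 22 markers checked, the epithelial KRT8, KRT18 and KRT19 and the mesenchymal VIM were expressed throughout (lowest values 333, 957, 44.6 and 2786 TPM, a transcript abundance scaled by length and library), while the epithelial markers KRT7, EPCAM and CDH1 never exceeded 0.92, 0.13 and 0.17 TPM. The fibroblast list had COL1A2 at 94.95 to 207 TPM and its other members COL1A1, DCN, LUM and PDGFRB at no more than 1.3 TPM. Of the rest, ZEB1 (3.78 to 7.13 TPM), the endothelial CDH5 (0.86 to 12.6), CD68 (0.11 to 6.98) and CD14 (0.33 to 1.45) were detected, and CDH2, PTPRC, CD3E, MS4A1, PECAM1 and VWF stayed below 0.2 TPM. The targeted gene ZBTB11 lay at 27.9 to 28.7 CPM (counts scaled to library size) with DOX against 52 to 54.3 with DMSO in sgZBTB11 #2 cells at day 5. In sgZBTB11 #1 cells it lay at 35.01 to 38.4 CPM with DOX against 46.9 to 50.5 with DMSO at day 5, and in sgNS cells at 46.9 to 53.4 against 51.2 to 60.1. At 5 hr its log2 change with DOX was -0.17 in sgZBTB11 #2 cells, -0.00 in sgZBTB11 #1 cells and 0.17 in sgNS cells, so only from day 1 was it lower in both ZBTB11 guide lines. At day 1 its mean was 29.3 CPM with DOX against 44.6 with DMSO in sgZBTB11 #2 cells and 39 against 47.9 in sgZBTB11 #1 cells. In sgNS cells ZBTB11 was then lower with DOX as well, at 45.5 to 48.2 CPM against 51.2 to 51.4 with DMSO. Transcripts encoded by mitochondrial DNA took 11.9 to 14.3% of counts at 5 hr, 9.91 to 12.6% at day 1, 17.8 to 22.2% at day 3 and 25.98 to 33.7% at day 5.

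The first comparison followed culture time in DMSO cells. Averaged over the 3 lines, MYC fell at every step of the time course, least in the last, and MXI1 rose at every step. By day 5 the level of MYC per transcript length was close to that of MAX. MYC (ENSG00000136997.22, chromosome 8, 127735434 to 127742951, GRCh38.p14) had 395, 423 and 425 CPM in the 3 libraries of sgZBTB11 #1 cells with DMSO at 5 hr, 202, 202 and 200.1 on day 1, 80.8, 70.8 and 71.97 on day 3, and 66.7 and 61.8 on day 5. In sgZBTB11 #2 cells with DMSO the values were 507, 486 and 511 CPM at 5 hr, 228, 216 and 242 on day 1, 79.7, 76.1 and 78.9 on day 3, and 63.98, 66.99 and 60.95 on day 5. In sgNS cells with DMSO they were 525, 548 and 573 CPM at 5 hr, 246 and 248 on day 1, 76.2, 72.6 and 78.3 on day 3, and 70.8, 74.5 and 70.5 on day 5. Every library of day 1 lay below every library of 5 hr, and every library of day 3 below every library of day 1, whereas those of days 3 and 5 overlapped.

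In edgeR's quasi-likelihood test with Benjamini-Hochberg adjustment, averaged over the 3 guide lines, MYC changed by -1.10 ± 0.023 (log2, SE) at day 1 relative to 5 hr (adjusted p = 8.06e-38) and by -1.55 ± 0.026 at day 3 relative to day 1 (adjusted p = 2.59e-42). It changed by -0.21 ± 0.030 at day 5 relative to day 3 (adjusted p = 6.57e-08), with -0.22 in sgZBTB11 #1, -0.31 in sgZBTB11 #2 and -0.08 in sgNS cells. From 5 hr to day 5 the log2 change was -2.85 ± 0.027 (adjusted p = 2.7e-53), with -2.69 in sgZBTB11 #1, -2.96 in sgZBTB11 #2 and -2.91 in sgNS cells. Of 11202 genes with a mean of at least 5 CPM, 70 fell more. Changes with time were general: 85.9% of all genes tested passed the threshold for day 5 against 5 hr, 67.2% for day 1 against 5 hr, 79.8% for day 3 against day 1 and 65.3% for day 5 against day 3. The time points and any handling batch of a time point cannot be told apart, nor, in bulk samples, fewer cells of a kind and less RNA per cell. Leaving the genes of mitochondrial DNA out of the library sizes, since their share moved with time, kept the side of the threshold in 284 of 284 tests of the network. Changes past the threshold also kept their direction.

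**Figure D1:**
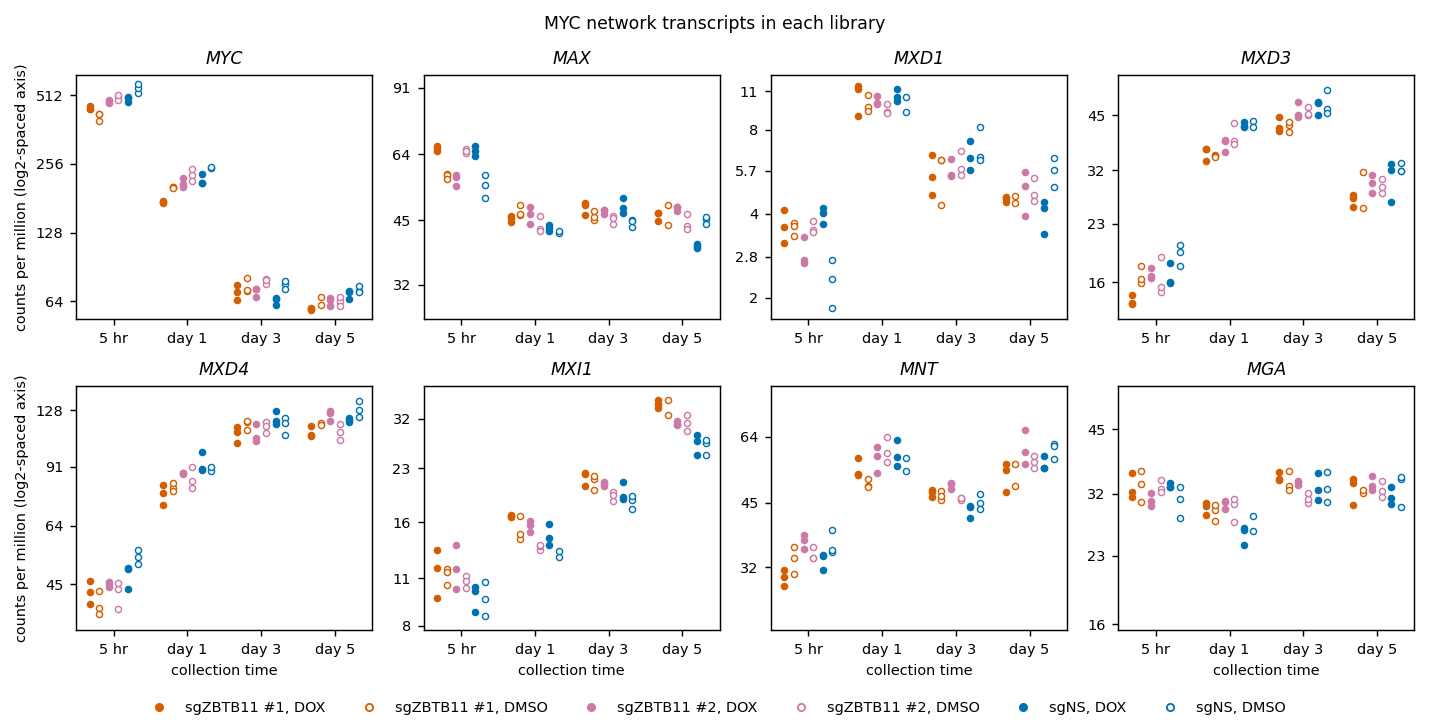
CPM of each network gene (log2-spaced vertical axis) in each library, by collection time; filled points are DOX libraries, open points DMSO libraries, and colours are the guide lines. MYC lies between 395 and 573 CPM in DMSO libraries at 5 hr and between 60.95 and 74.5 at day 5, while MXD4 and MXI1 lie higher at day 5 than at 5 hr in every line.

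MAX (ENSG00000125952.21, chromosome 14, 65006101 to 65102695), the partner that these proteins share, moved much less than MYC. Its level over the DMSO libraries was 50.7 to 65.6 CPM at 5 hr (median 57.3, n = 9), 42.01 to 48.9 on day 1 (median 44.5, n = 8), 43.4 to 47.3 on day 3 (median 45.2, n = 9) and 42.9 to 48.9 on day 5 (median 44.8, n = 8). Every library of days 1, 3 and 5 lay below the lowest of 5 hr, and the 3 later times overlapped. The log2 change was -0.39 ± 0.028 at day 1 relative to 5 hr (adjusted p = 2.21e-18, edgeR) and 0.05 ± 0.029 and -0.01 ± 0.029 in the later steps, which did not pass.

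MXI1 (ENSG00000119950.21, chromosome 10, 110207605 to 110287365), a MAX-dependent repressor also known as MXD2, rose at each step. It had 8.56 to 11.7 CPM in DMSO libraries at 5 hr (median 10.7), 12.7 to 16.7 at day 1 (median 13.7), 17.5 to 21.8 at day 3 (median 19.2) and 25.1 to 36.2 at day 5 (median 30.3). No range overlapped that of the time before it. The log2 change was 0.41 ± 0.051 at day 1 relative to 5 hr (adjusted p = 3.61e-10, edgeR), 0.50 ± 0.045 at day 3 relative to day 1 and 0.64 ± 0.040 at day 5 relative to day 3, and 1.56 ± 0.044 from 5 hr to day 5.

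MXD4 (ENSG00000123933.17, chromosome 4, 2247432 to 2262109), a repressor of the same family, rose to day 3 and then held its level. It had 37.6 to 55.3 CPM in DMSO libraries at 5 hr (median 43.9), 79.0 to 91.2 at day 1 (median 83.0), 110.2 to 122 at day 3 (median 118) and 107 to 135 at day 5 (median 118). The log2 change was 0.93 ± 0.033 at day 1 relative to 5 hr (adjusted p = 3.41e-27, edgeR), 0.47 ± 0.029 at day 3 relative to day 1 and 0.02 ± 0.028, which did not pass, at day 5 relative to day 3. Over the whole course it was 1.42 ± 0.032.

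MXD3 (ENSG00000213347.11, chromosome 5, 177305499 to 177312752) and MXD1 (ENSG00000059728.11, chromosome 2, 69915109 to 69942945), the founding member of the family known from differentiating cells, rose first and fell later. MXD3 had 15.0 to 20.1 CPM in DMSO libraries at 5 hr, 34.7 to 43.3 at day 1, 40.4 to 52.6 at day 3 and 25.3 to 33.4 at day 5. MXD1 had 1.84 to 3.77 CPM at 5 hr, 9.21 to 10.6 at day 1, 4.29 to 8.16 at day 3 and 4.38 to 6.32 at day 5. MXD1 thus peaked at day 1 and MXD3 at day 3. The log2 changes of MXD3 were 1.18 ± 0.043, 0.24 ± 0.037 and -0.61 ± 0.039 in the 3 successive steps (adjusted p = 3.5e-31, 7.13e-08 and 1.76e-20, edgeR). Those of MXD1 were 1.67 ± 0.082, -0.65 ± 0.071 and -0.30 ± 0.082 (adjusted p = 2.59e-25, 6.55e-12 and 0.00104). MXD1 was the scarcest member, with 27 to 207 counts in a library, so its errors were the widest.

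MNT (ENSG00000070444.15, chromosome 17, 2384073 to 2401060), the broadly expressed MAX partner that opposes MYC in growing cells, stood at 30.8 to 39.03 CPM in DMSO libraries at 5 hr and at 49.3 to 61.5 at day 5. It changed by 0.67 ± 0.033, -0.23 ± 0.031 and 0.27 ± 0.031 (log2) in the 3 successive steps (adjusted p = 2.88e-25, 3.04e-09 and 9.32e-11, edgeR). MGA (ENSG00000174197.19, chromosome 15, 41621224 to 41769940) had the flattest profile, with 28.1 to 36.1 CPM at 5 hr and 29.8 to 34.9 at day 5, and a log2 change over the whole course of 0.03 ± 0.040 that did not pass. It was lower at day 1 than at 5 hr by -0.17 ± 0.040 and higher at day 3 than at day 1 by 0.21 ± 0.040 (adjusted p = 0.000246 and 6.87e-06).

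Together 27 of the 32 tests of a member between 2 time points passed, 16 higher and 11 lower, which is near the share of all genes given above. In the deposited TPM, tested with limma on log2(TPM + 1), the median of all genes itself moved by 0.13 at day 1 relative to 5 hr and by -0.18 at day 5 relative to day 3. There MAX at day 1 had -0.07 (adjusted p = 0.0713), MGA at day 1 had 0.03 and MNT at day 5 relative to day 3 had -0.05, which relative to the median of all genes were -0.20, -0.10 and 0.13. Only MXD1 at day 5 relative to day 3 took the other sign relative to that median among the 27 called changes (0.06).

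Levels can be compared between genes per transcript length, in TPM. At 5 hr in DMSO libraries the median level was 225 TPM for MYC, 28.6 for MAX, 12.1 for MXD3, 11.2 for MXD4, 9.49 for MNT, 4.39 for MGA, 4.06 for MXI1 and 0.75 for MXD1. In that order MXD3 and MXD4, MXD4 and MNT, and MGA and MXI1 overlapped between libraries. At day 5 the medians were 26.8 TPM for MYC and for MXD4, 24.4 for MAX, 23.01 for MXD3, 16.8 for MNT, 11.4 for MXI1, 4.78 for MGA and 1.76 for MXD1. The ranges of MYC, MXD4, MAX and MXD3 then overlapped one another, as did those of MXD3 and MNT and of MNT and MXI1.

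The ratio of MYC to MAX in TPM had a median of 7.01 in DMSO libraries at 5 hr (5.69 to 9.71), 4.46 on day 1, 1.42 on day 3 and 1.18 on day 5 (1.03 to 1.29). The summed level of MXD1, MXD3, MXD4, MXI1 and MNT had medians of 37.3, 91.4, 104 and 78.7 TPM at 5 hr and days 1, 3 and 5. MYC stood at 5.81 times that sum at 5 hr (4.72 to 6.49), 1.26 times at day 1 (1.11 to 1.35), 0.381 times at day 3 (0.341 to 0.398) and 0.345 times at day 5 (0.314 to 0.367). Thus the summed opponents passed MYC in transcript level between days 1 and 3, in the libraries of every line. In DOX libraries the same ratio had medians of 5.58, 1.103, 0.339 and 0.328 at 5 hr and days 1, 3 and 5. These are ratios of transcripts and say nothing of the proteins. From day 3 to day 5, where the summed level in DMSO libraries fell, the median of all genes in TPM itself moved by -0.18. In counts over that step MXI1 and MNT rose, MXD4 held its level, and MXD3 and MXD1 fell.

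**Figure D2:**
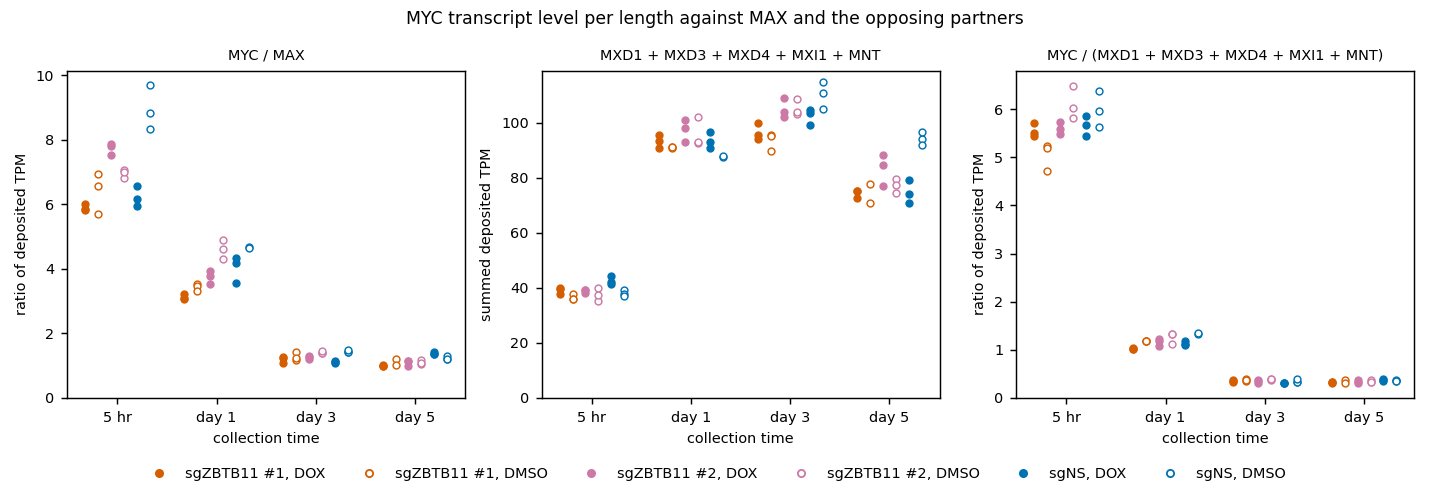
Ratio of MYC to MAX, summed level of the opponents MXD1, MXD3, MXD4, MXI1 and MNT, and ratio of MYC to that sum, from deposited TPM in each library by collection time; filled points are DOX and open points DMSO. The ratio of MYC to the sum is above 4.7 in all libraries at 5 hr and below 0.41 in all libraries of days 3 and 5.

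Over the 24 group means, the range of log2 CPM was 3.21 for MYC, 2.16 for MXD1, 1.87 for MXI1, 1.75 for MXD3, 1.69 for MXD4, 0.99 for MNT, 0.75 for MAX and 0.44 for MGA. As a description over these 24 means, which share lines and times, MYC had a Pearson correlation of -0.94 with MXD4 and -0.93 with MXI1, of -0.68 with MXD3, -0.64 with MNT and -0.24 with MXD1. MAX went with MYC at 0.69 and against MNT at -0.89. Among the 5 genes most like MYC of 11202 were NOP16 (0.996), PVR (0.996), CLPTM1L (0.995) and MRTO4 (0.995). Those most like MXD1 were CLDN12 (0.963), TRIM5, KIAA0586, HS1BP3 and DUSP16 (0.945). Those most like MXI1 were PDCD6IP (0.987), ST3GAL6, METTL18, IST1 and CROT (0.984).

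**Figure D3:**
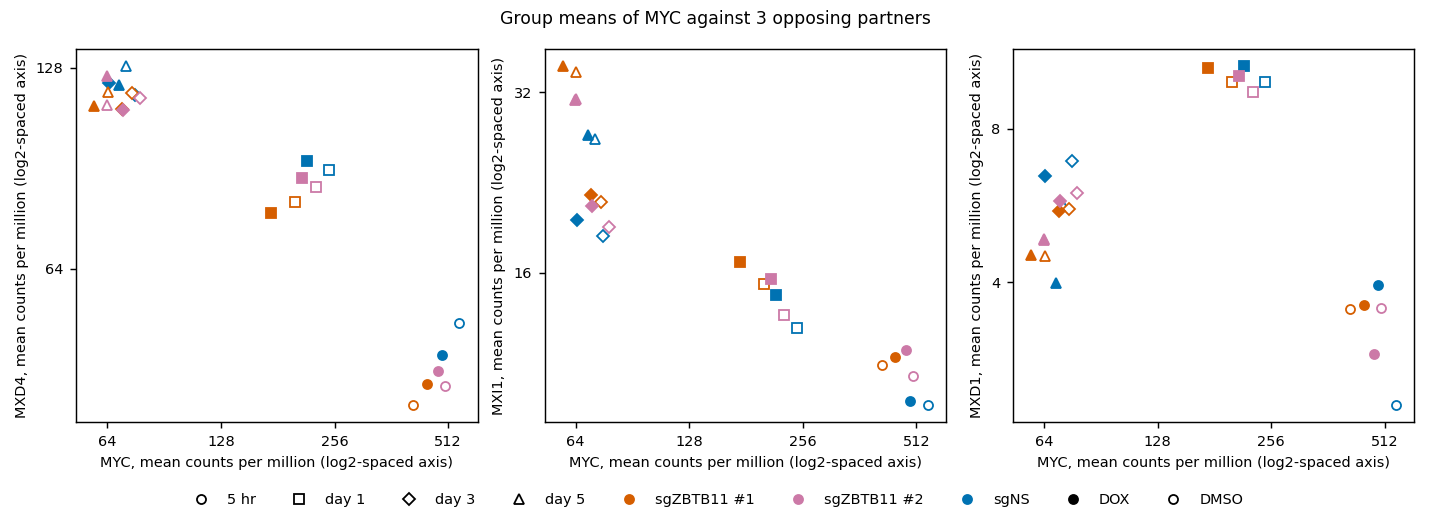
Mean CPM of MXD4, MXI1 and MXD1 against mean CPM of MYC in the 24 groups (both axes log2-spaced); symbols are times, colours guide lines, filled points DOX and open points DMSO. MXD4 and MXI1 run against MYC over the times, whereas MXD1 is highest at day 1, where MYC is intermediate.

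Next, DOX was compared with DMSO within each guide line. For MYC the changes were small against the overall change with time, and MYC was lower with DOX in the control line as well. In sgZBTB11 #1 cells at day 1 MYC had 172, 174 and 176 CPM with DOX, against 202, 202 and 200.1 with DMSO. In sgZBTB11 #2 cells it had 221, 202 and 208 CPM with DOX, against 228, 216 and 242 with DMSO. In sgNS cells it had 210.2, 210.2 and 229.9 CPM with DOX, against 246 and 248 with DMSO. The ranges did not overlap in sgZBTB11 #1 and sgNS cells and did overlap in sgZBTB11 #2 cells. What share of all genes separates in this way was not counted, here or for the other overlaps with DOX below. The log2 change of MYC was -0.19 ± 0.037 in sgZBTB11 #1 (adjusted p = 0.00139, edgeR), -0.11 ± 0.036 in sgZBTB11 #2 (adjusted p = 0.0634) and -0.17 ± 0.040 in sgNS cells (adjusted p = 0.016).

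At 5 hr the lines moved apart. MYC had 444, 446 and 458 CPM with DOX against 395, 423 and 425 with DMSO in sgZBTB11 #1 cells, a log2 change of 0.12 ± 0.030 (adjusted p = 0.00176, edgeR). In sgNS cells it had 477, 503 and 496 CPM with DOX against 525, 548 and 573 with DMSO, a change of -0.13 ± 0.030 (adjusted p = 0.000335). In sgZBTB11 #2 cells the change was -0.05 ± 0.030 and did not pass. DOX and DMSO libraries did not overlap in any of the 3 lines, a separation that was not set against that of all genes. At day 3 MYC was lower with DOX in sgNS cells, with 66.2, 61.8 and 65.5 CPM against 76.2, 72.6 and 78.3 with DMSO and a change of -0.23 ± 0.051 (adjusted p = 0.0198). The changes in sgZBTB11 #1 and #2 cells at day 3 were -0.09 ± 0.051 and -0.15 ± 0.048, and at day 5 no line passed.

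The share of all genes past the threshold with DOX set the scale for these calls. At 5 hr 32.8% of genes passed in sgZBTB11 #1, 17% in sgZBTB11 #2 and 40.9% in sgNS cells, and 4.84%, 7.88% and 2.19% in the same lines at day 1. It was 0.733%, 1.17% and 0.877% at day 3, and 1.14%, 9% and 17.3% at day 5. Of the 96 tests of a member with DOX, 13 passed, 5 higher and 8 lower, and 7 of these came from 5 hr. The MYC call in sgNS cells at day 1 was lost without DMSO replicate 1 or 2 or DOX replicate 1 or 2 (adjusted p = 0.0908 to 0.206), and that at day 3 without DMSO replicate 3 or DOX replicate 2 or 3 (0.0628 to 0.155). With 1 of the 2 sgNS DMSO libraries of day 1 left out, the lone sample is assumed to vary like the other groups. In TPM at 5 hr, where the median of all genes moved by 0.17 in sgNS cells, MYC in sgNS cells had 0.08, or -0.09 relative to that median.

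MAX with DOX at 5 hr had 66.9, 65.1 and 66.3 CPM against 57.5, 57.3 and 56.2 with DMSO in sgZBTB11 #1 cells. In sgZBTB11 #2 cells it had 56.7, 54.1 and 57.3 CPM with DOX against 64.4, 65.6 and 65.01 with DMSO. In sgNS cells it had 66.7, 65.2 and 63.4 CPM with DOX against 54.2, 57.1 and 50.7 with DMSO. MAX was thus higher with DOX in sgZBTB11 #1 and sgNS cells and lower in sgZBTB11 #2 cells, with no overlap in any line. The log2 changes were 0.22 ± 0.042, -0.20 ± 0.043 and 0.29 ± 0.043 (adjusted p = 8.25e-05, 0.000626 and 8.87e-07, edgeR). At day 5 the control line alone passed, with 39.8, 38.9 and 39.4 CPM with DOX against 45.4, 44.1 and 45.9 with DMSO, a change of -0.20 ± 0.050 (adjusted p = 0.00216). In sgZBTB11 #1 and #2 cells MAX at day 5 changed by 0.00 ± 0.055 and 0.11 ± 0.049. The opposite direction of sgZBTB11 #2 cells at 5 hr was also seen in the share of counts encoded by mitochondrial DNA. It was 12.5 to 12.7% with DMSO and 13.1 to 13.4% with DOX in sgZBTB11 #2 cells. In sgZBTB11 #1 cells it was 14.04 to 14.1% and 12.2 to 12.4%, and in sgNS cells 13.7 to 14.3% and 11.9 to 12.4%. Any difference in handling between groups cannot be told apart from guide and DOX, and was not tested.

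MXD1 changed with DOX in sgNS cells and not past the threshold in either ZBTB11 guide line. In sgNS cells at 5 hr it had 4.02, 4.19 and 3.67 CPM with DOX against 1.84, 2.33 and 2.72 with DMSO, a log2 change of 0.82 ± 0.171 (adjusted p = 0.000139, edgeR). The changes at 5 hr were 0.02 ± 0.156 in sgZBTB11 #1 and -0.29 ± 0.165 in sgZBTB11 #2 cells. In sgNS cells at day 5 MXD1 had 4.21, 4.39 and 3.39 CPM with DOX against 4.98, 5.72 and 6.32 with DMSO, a change of -0.53 ± 0.148 (adjusted p = 0.00741). That call was lost without DMSO replicate 3 or DOX replicate 3 (adjusted p = 0.0816 and 0.0828) and in DESeq2 (0.0595). DOX and DMSO libraries of sgNS did not overlap at either time.

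The remaining calls with DOX were those of MXD3 and MXD4. MXD3 had 14, 14.05 and 14.8 CPM with DOX against 15.9, 16.3 and 17.6 with DMSO in sgZBTB11 #1 cells at 5 hr, a log2 change of -0.22 ± 0.081 (adjusted p = 0.0345, edgeR). It was lost in DESeq2, with no filter on low counts, and without DMSO replicate 2 or 3 or DOX replicate 1 or 2 (adjusted p = 0.0624 to 0.184), and in TPM the value was 0.04. MXD4 had 128, 126 and 119.9 CPM with DOX against 113, 107 and 118 with DMSO in sgZBTB11 #2 cells at day 5, a change of 0.14 ± 0.037 (adjusted p = 0.00604). It was lost without DMSO replicate 2 or DOX replicate 1 (adjusted p = 0.0941 and 0.0699). MXI1, MNT and MGA passed in no line at any time, with log2 changes between -0.14 and 0.22.

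**Figure D4:**
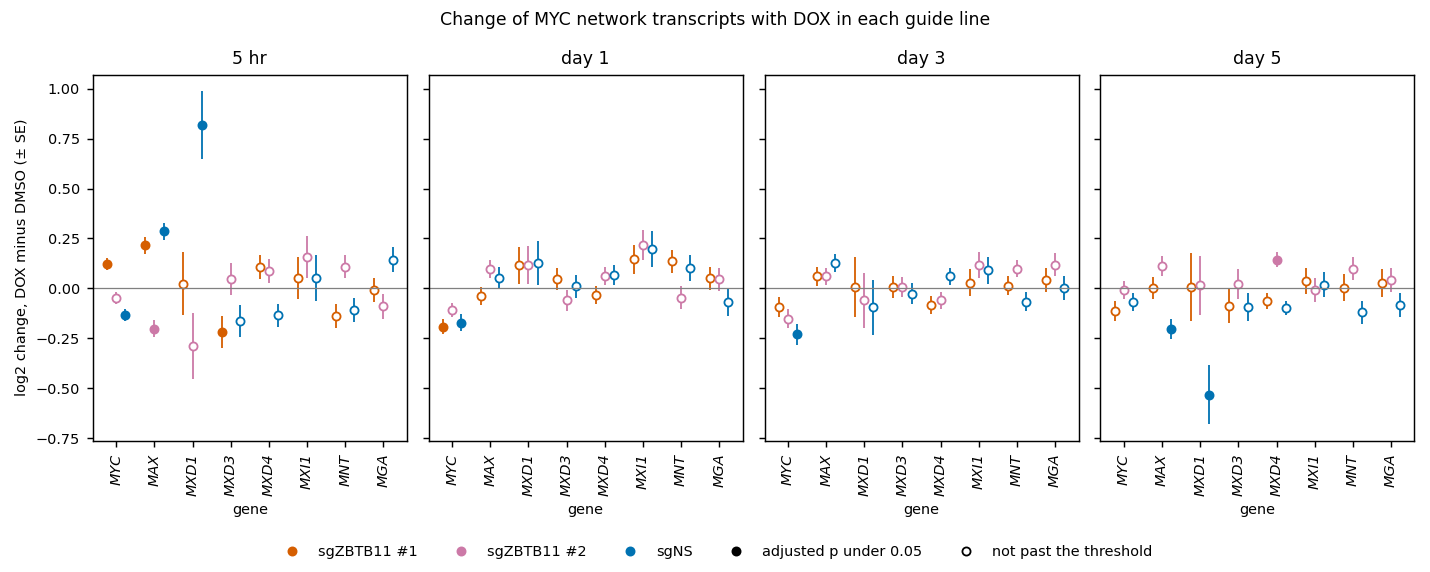
Log2 change with DOX relative to DMSO (± SE, edgeR) of the 8 network genes in sgZBTB11 #1, sgZBTB11 #2 and sgNS cells at each time; filled points passed an adjusted p of 0.05. The largest changes are those of MXD1 in sgNS cells, 0.82 at 5 hr and -0.53 at day 5, and MYC lies between -0.23 and 0.12 throughout.

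The net change with ZBTB11 guides, the mean DOX change of both ZBTB11 guide lines minus that of sgNS cells, was past the threshold in 7 of 32 tests of a member, 5 higher and 2 lower, and in none at days 1 and 3. Of all genes, 30% passed at 5 hr, 0.0737% on day 1, 0.493% on day 3 and 19.2% on day 5. At 5 hr the net log2 change was 0.17 ± 0.037 for MYC (adjusted p = 0.000372, edgeR), -0.28 ± 0.053 for MAX (6.55e-05), -0.95 ± 0.205 for MXD1 (0.000353) and 0.23 ± 0.071 for MXD4 (0.0122). At day 5 it was 0.26 ± 0.062 for MAX (0.00141), 0.54 ± 0.186 for MXD1 (0.0316) and 0.14 ± 0.046 for MXD4 (0.0238). The DOX change of sgNS cells enters each of these with its sign reversed. For MXD4 it was -0.13 ± 0.057 at 5 hr and -0.10 ± 0.036 at day 5, neither past the threshold. At 5 hr MAX changed by 0.22 in sgZBTB11 #1, -0.20 in sgZBTB11 #2 and 0.29 in sgNS cells. In the same lines MYC changed by 0.12, -0.05 and -0.13, and MXD1 by 0.02, -0.29 and 0.82. At day 5 MAX changed by 0.00, 0.11 and -0.20, and MXD1 by 0.01, 0.02 and -0.53. The MXD4 call at 5 hr was lost without sgNS DOX replicate 1 (0.0655). The MXD1 call at day 5 was lost without sgNS DMSO replicate 3, sgNS DOX replicate 3, sgZBTB11 #1 DMSO replicate 2 or sgZBTB11 #2 DOX replicate 3 (0.0648 to 0.141) and in DESeq2 (0.146). The MXD4 call at day 5 was lost in DESeq2 (0.0563), in 1 fit of all libraries (0.133) and with any 1 of these left out: sgNS DMSO replicate 2, sgNS DOX replicates 1 and 3, sgZBTB11 #1 DMSO replicate 2, sgZBTB11 #1 DOX replicate 1 and sgZBTB11 #2 DMSO replicate 2 (0.0522 to 0.1003). At days 1 and 3, when ZBTB11 was lower in both guide lines, the net change of MYC was 0.02 ± 0.048 and 0.11 ± 0.062, and at day 5 it was 0.01 ± 0.055. In TPM the net values of MYC and MXD4 at 5 hr were 0.00 and 0.04 and did not pass, where the median of all genes moved by -0.13.

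The ZBTB11 guides also differed from each other. The DOX change in sgZBTB11 #2 cells minus that in sgZBTB11 #1 cells passed in 4 of 32 tests of a member, 2 higher and 2 lower, where 35.1% of all genes passed at 5 hr, 0.0614% on day 1, 0.018% on day 3 and 2.58% on day 5. At 5 hr the difference was -0.17 ± 0.043 for MYC (adjusted p = 0.00152, edgeR), -0.42 ± 0.060 for MAX (4.41e-07) and 0.25 ± 0.084 for MNT (0.0187). At day 5 it was 0.21 ± 0.056 for MXD4 (0.0266). The MNT call was lost in DESeq2 (0.0813) and without sgZBTB11 #1 DMSO replicate 2, sgZBTB11 #1 DOX replicate 1 or replicate 2 of either treatment of sgZBTB11 #2 (0.0507 to 0.0942). The MXD4 call was lost in 1 fit of all libraries (0.123) and without either sgZBTB11 #1 DMSO replicate, sgZBTB11 #1 DOX replicate 2 or 3, sgZBTB11 #2 DMSO replicate 2 or sgZBTB11 #2 DOX replicate 1 or 2 (0.0581 to 0.152). Leaving out 1 of the 2 sgZBTB11 #1 DMSO libraries of day 5 leaves a lone sample, assumed to vary like the other groups.

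With DMSO alone, cells with a ZBTB11 guide differed from sgNS cells in 21 of 64 tests of a member, 8 higher and 13 lower, against 32%, 21.2%, 19.7% and 21.8% of all genes for sgZBTB11 #1 and 32.2%, 10.7%, 3.32% and 18% for sgZBTB11 #2 at 5 hr and days 1, 3 and 5. MYC was lower in sgZBTB11 #1 cells than in sgNS cells by -0.38 ± 0.030 at 5 hr (adjusted p = 4.46e-13, edgeR) and by -0.29 ± 0.040 at day 1 (3.63e-06). It was lower in sgZBTB11 #2 cells by -0.12 ± 0.030 at 5 hr (0.00192), which was 0.01 in TPM. MXD4 was lower at 5 hr by -0.38 ± 0.059 in sgZBTB11 #1 and -0.30 ± 0.059 in sgZBTB11 #2 cells, and MXD1 was higher by 0.66 ± 0.173 and 0.66 ± 0.174. MXI1 was higher at day 5 by 0.35 ± 0.066 in sgZBTB11 #1 cells (5.95e-05) and by 0.20 ± 0.061 in sgZBTB11 #2 cells (0.0122). The last of these was lost without sgNS replicate 2 or sgZBTB11 #2 replicate 3 (0.0787 and 0.0955).

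The change from 5 hr to day 5 in DMSO cells differed between a ZBTB11 guide line and sgNS cells in 5 of 16 tests of a member, 2 higher and 3 lower, against 18.5% of all genes for sgZBTB11 #1 and 20.1% for sgZBTB11 #2. Within a line, 74.5% of all genes in sgZBTB11 #1, 78.3% in sgZBTB11 #2 and 77.5% in sgNS cells differed between these times. MXD1 changed by 0.34 ± 0.170 in sgZBTB11 #1 (not past the threshold), 0.45 ± 0.151 in sgZBTB11 #2 and 1.35 ± 0.162 in sgNS cells, differences of -1.01 ± 0.236 and -0.90 ± 0.225 (adjusted p = 0.00131 and 0.00216, edgeR). These differences and the 5 hr MXD1 results above that involve sgNS cells share the same 3 sgNS DMSO libraries of 5 hr. Mean MXD1 in those libraries was 2.3 CPM, against 3.55 and 3.57 in sgZBTB11 #1 and #2 cells with DMSO. For sgZBTB11 #1 minus sgNS cells the difference was 0.22 ± 0.068 for MYC (0.017) and 0.26 ± 0.080 for MXD4 (0.019). In TPM both took the other sign (-0.0812 and -0.0849, neither past the threshold), where the median of all genes was -0.26, and relative to that median they were 0.18 and 0.17. MAX fell more in sgZBTB11 #2 than in sgNS cells, by -0.30 ± 0.066 (0.000533). The MYC difference was lost without sgZBTB11 #1 DMSO day 5 replicate 1 (0.196) or sgNS DMSO day 5 replicate 3 (0.051), and the MXD4 difference without sgNS 5 hr replicate 3, sgZBTB11 #1 5 hr replicate 3 or sgZBTB11 #1 day 5 replicate 1 (0.0599 to 0.0775).

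Genes that MYC is known to activate were then set beside MYC itself. The list held 53 textbook targets, mainly of ribosome production, nucleotide synthesis and growth, and all were tested. From 5 hr to day 5 in DMSO cells 52 were lower and 1 was higher, against 41.6% of all genes lower and 44.3% higher, and the median log2 change was -1.58, against 0.05 over all genes. The largest decreases were those of DCTPP1, a nucleotide pyrophosphatase (-2.64 ± 0.047), NOP16, a nucleolar protein (-2.63 ± 0.027), GRWD1, a ribosome assembly factor (-2.48 ± 0.037), and NOLC1, a nucleolar phosphoprotein (-2.47 ± 0.021), with adjusted p of 3.65e-47, 9.58e-59, 1.54e-50 and 3.21e-62 (edgeR). The exception was SLC29A2, a nucleoside transporter, at 1.495, chosen after its value was seen. PVT1, the noncoding neighbour of MYC, fell by 1.69 ± 0.029.

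Changes of the targets with DOX within a line are given here for day 1 only. MYC itself also passed at 5 hr, at 0.12 in sgZBTB11 #1 and -0.13 in sgNS cells, and at day 3 in sgNS cells (-0.23). The targets at those times are not described. With DOX at day 1, 21 of the 53 targets were lower in sgZBTB11 #1, 26 in sgZBTB11 #2 and 14 in sgNS cells, against 3.2%, 4.45% and 1.63% of all genes. In each line 0 targets were higher, against 1.64%, 3.43% and 0.559% of all genes. Their median log2 changes were -0.13, -0.12 and -0.12, against 0.01, -0.00 and 0 over all genes. RRP9, a ribosomal RNA processing factor, changed by -0.27 ± 0.060 in sgZBTB11 #1 and -0.33 ± 0.059 in sgZBTB11 #2 cells, and DCTPP1 by -0.28 ± 0.060 and the transferrin receptor TFRC by -0.24 ± 0.033 in sgNS cells. Without sgZBTB11 #1 DOX replicate 2 the call of RRP9 in that line was lost (adjusted p = 0.0837, edgeR), as was that of DCTPP1 without sgNS DMSO replicate 1 (0.184). Net of sgNS cells, 0 of 53 targets passed at day 1, with a median of -0.00 and 0.0737% of all genes past the threshold. At day 5, 8 were lower and 2 higher net of sgNS cells, against 10.3% and 8.95% of all genes. They were led by the chaperonin HSPD1 (-0.43 ± 0.032), the ribosome factor BYSL (-0.40 ± 0.106), lactate dehydrogenase LDHA (-0.39 ± 0.033) and AIMP2 of the tRNA synthetase complex (-0.36 ± 0.079). The DOX change of sgNS cells enters these values with its sign reversed, and their changes within each line are not given here. With DOX at day 5, 17.3% of all genes passed in sgNS cells, against 1.14% in sgZBTB11 #1 and 9% in sgZBTB11 #2 cells. The day 1 counts moved with the test: TPM gave 6 for sgZBTB11 #1, 8 for sgZBTB11 #2 and 2 for sgNS cells, in 1 fit of all libraries 32 in sgZBTB11 #1 and 22 in sgNS cells, and in DESeq2 17 in sgZBTB11 #2 cells. Without sgNS DMSO replicate 1 or 2 the sgNS count was 8, with the spread of the lone remaining sample taken from the other groups.

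**Figure D5:**
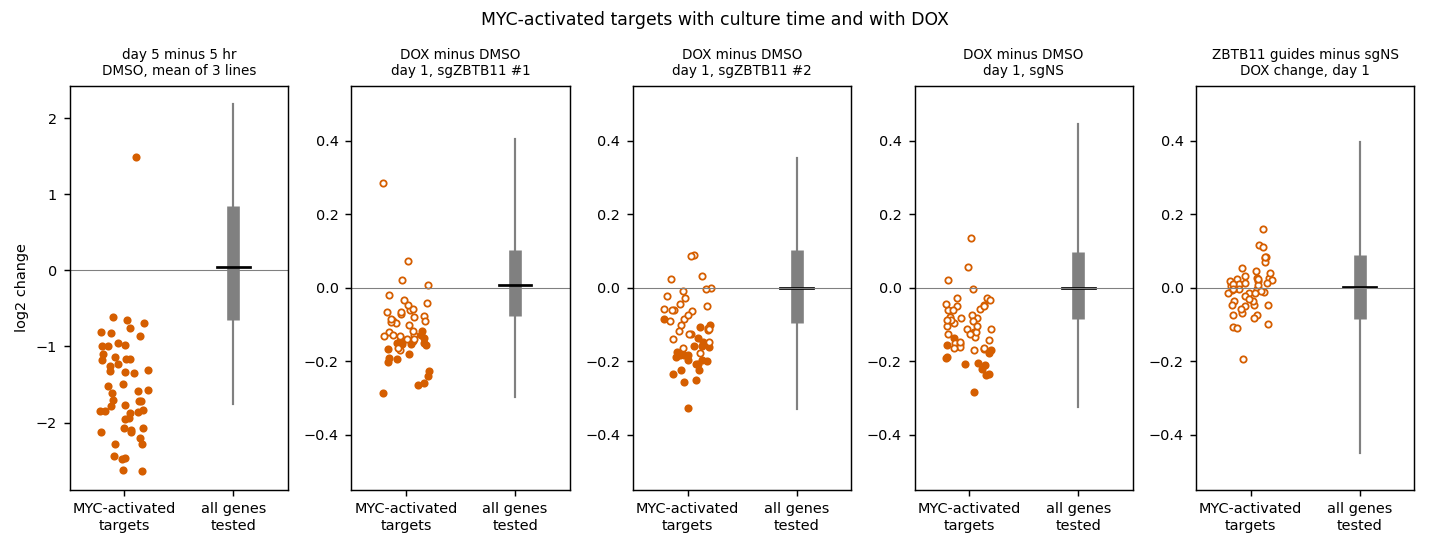
Log2 changes of the 53 MYC-activated targets (points, filled where an adjusted p of 0.05 was passed) beside all genes tested (thin line, 5th to 95th percentile; thick bar, middle of the distribution between the quartiles; black line, median). The targets lie low with time, with a median of -1.58, and slightly low with DOX at day 1 in each line, and around 0 net of sgNS; the first panel has its own vertical scale.

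The E-box CACGTG reads the same on both strands and was the only motif searched, in RefSeq promoters of GRCh38.p14 from 250 bases before to 50 after the gene start. It was present in 7.26% of 35116 promoters of all genes, and in 26 of 59 promoters (44.1%) of the 45 targets on the list with an entry. Of the network, 7 of 8 genes had an entry, with 12 promoters, and the motif was in those of MXD4 and MNT, while MYC had none in the table. A match is a description and not evidence of binding. Of the targets named for the largest decreases with time, DCTPP1 had a match, and NOP16, GRWD1 and NOLC1 had no match or no entry. The windows below show where the motif lies in the promoters of both network genes and of 3 targets named above, picked among those with a match. They run 5′ to 3′ on the gene's strand, with the E-box in capitals.
MXD4: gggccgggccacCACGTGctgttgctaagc
MNT: ccctgcccgggcCACGTGtgcgcgcgccgg
DCTPP1: ggagggttcctcCACGTGgtcgggaagcgg
RRP9: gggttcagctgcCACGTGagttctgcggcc
MRTO4: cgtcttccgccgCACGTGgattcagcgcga
They lie at chr4:2262330-2262359 (minus strand) for MXD4, chr17:2401236-2401265 (minus) for MNT, chr16:30429792-30429821 (minus) for DCTPP1, chr3:51941892-51941921 (minus) for RRP9 and chr1:19251807-19251836 (plus) for MRTO4. The motif starts 238, 193, 9 and 5 bases before the gene start in MXD4, MNT, DCTPP1 and RRP9, and 14 bases after it in MRTO4, a ribosome assembly factor that was also among the 5 genes most like MYC.

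Targets that MYC is known to repress moved in both directions. Of 6 tested out of 7 listed, 4 were higher and 2 lower at day 5 than at 5 hr (median 0.25), with GADD45A at -2.51 ± 0.032, the cell cycle inhibitors CDKN1C at 2.08 ± 0.103 and CDKN1A at -1.42 ± 0.0998, and NDRG1 at 1.23 ± 0.101. Among 13 coactivators of MYC 6 were higher and 5 lower (median 0.08), and the leading changes were those of the ATPases RUVBL2 (-1.72 ± 0.021) and RUVBL1 (-1.48 ± 0.026), WDR5 (-1.22 ± 0.023) and the acetyltransferase KAT2A (0.94 ± 0.022). Of 12 regulators of MYC protein stability and activity, 3 were higher and 8 lower (median -0.44), with CIP2A, which shields MYC from dephosphorylation, at -1.81 ± 0.046 and the kinase AURKA at -1.42 ± 0.023. All of these passed an adjusted p of 0.05 in edgeR, beside the 85.9% of all genes that did.

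The SIN3 and histone deacetylase corepressor, through which MXD proteins act, held genes that moved both ways. Of 12 subunits 6 were higher and 5 lower at day 5 than at 5 hr (median 0.38), near the 44.3% and 41.6% of all genes, with SAP30 at -2.59 ± 0.107, ARID4B at 1.39 ± 0.038, SUDS3 at 1.16 ± 0.030 and the deacetylase HDAC2 at -1.13 ± 0.023. In the MGA-containing PRC1.6 complex 7 of 9 subunits were lower and 0 higher (median -0.33), against 41.6% of all genes lower and 44.3% higher. The leading changes were those of TFDP1 (-1.34 ± 0.024), CBX3 (-0.72 ± 0.022), RNF2 (-0.71 ± 0.047) and PCGF6 (-0.56 ± 0.045), while MGA itself was level. Of the related MLX branch, MLXIPL (also called ChREBP), a glucose-responsive factor, rose by 1.85 ± 0.035 (adjusted p = 6.89e-46, edgeR). MLX itself had a change of -0.09 ± 0.026.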

How the data were processed

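Poly(A) RNA-seq of 70 libraries of MIA PaCa-2 cells was analysed from 2 deposited tables. The authors deposited expected counts per gene, which need not be whole, and TPM. The submitters' processing notes name RSEM and the build GRCh38.p14. As to aligner, annotation version and strand, nothing is given in the sources used here, so reads of overlapping or antisense genes cannot be told apart. Expected counts were rounded, and 5.13% of values were not whole before. No column belonged to other samples. Total counts were 12068833 to 20627648, and the chi-square per degree of freedom between libraries of a group was 1.33 to 4.93 over 68 pairs, of which 0 were identical.

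Tests used edgeR 4.0.16 in R 4.3.3 (filterByExpr by group, TMM, robust quasi-likelihood F test), with 1 fit per time point for DOX and line comparisons and 1 fit of the 34 DMSO libraries for time. Benjamini-Hochberg adjustment ran over all genes tested, with a threshold of 0.05. CPM values are TMM-scaled. The alternatives tried were limma 3.58.1 on log2(TPM + 1) where 3 libraries or more reached 1 TPM, DESeq2 1.42.0, RLE scaling, a replicate block, 1 fit of all libraries, library sizes without genes of mitochondrial DNA, unfiltered genes, and omission of each library in turn.

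On simulated data drawn from the real means, with 200 genes changed, the net test at day 3 called 30% of 50 genes changed by 0.25 (log2), 74% at 0.5 and 100% at 1, with 9 false calls among 16645 genes. The time test called 86% at 0.25, with 7 false calls among 17598 genes. All changed genes had a mean of at least 5 CPM, and the rest were left unchanged. In the real data 85.9% of genes passed for day 5 against 5 hr, so these shares and false calls do not carry over to that test.

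Members and lists were chosen with earlier results of these data known. All 8 members are named. Of each other list up to 4 genes with the largest change among those past the threshold were named, and the 5 genes most correlated with MYC and with the 2 other members of largest range, among genes of at least 5 CPM on average (log2 CPM with a prior count of 2). Coordinates and promoters are RefSeq's, of the same build. A gene selected by the naming rule is not reported here.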

Additional observations from a re-analysis of the deposited data

Results flagged for a closer look

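Each result below is a difference between 2 effects of the same contrast that passed an adjusted p of 0.05 in edgeR's quasi-likelihood test, for a gene of the MYC network. No group had 4 or more libraries, so no single library was tested for standing apart.

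Net of sgNS cells at 5 hr, the DOX change of the ZBTB11 guides was 0.17 for MYC (adjusted p = 0.000372), -0.28 for MAX (6.55e-05), -0.95 for MXD1 (0.000353) and 0.23 for MXD4 (0.0122). At day 5 it was 0.26 for MAX (0.00141), 0.54 for MXD1 (0.0316) and 0.14 for MXD4 (0.0238). The signs for MAX and MXD1 were opposite at the 2 times, and a change between the times was not tested. The DOX change of sgNS cells enters each net value with its sign reversed, and ZBTB11 was not lower in both guide lines at 5 hr. Any difference in handling between groups cannot be told apart from guide and DOX. MAX at 5 hr changed by 0.22 in sgZBTB11 #1, -0.20 in sgZBTB11 #2 and 0.29 in sgNS cells. MYC changed by 0.12, -0.05 and -0.13. At day 5 MAX and MXD1 passed with DOX in sgNS cells alone (-0.20 and -0.53).

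Between the ZBTB11 guides, sgZBTB11 #2 minus sgZBTB11 #1, the DOX change differed at 5 hr by -0.17 for MYC (0.00152), -0.42 for MAX (4.41e-07) and 0.25 for MNT (0.0187), and at day 5 by 0.21 for MXD4 (0.0266).

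The change from 5 hr to day 5 in DMSO cells differed from that of sgNS cells by 0.22 for MYC (0.017), -1.01 for MXD1 (0.00131) and 0.26 for MXD4 (0.019) in sgZBTB11 #1 cells, and by -0.30 for MAX (0.000533) and -0.90 for MXD1 (0.00216) in sgZBTB11 #2 cells. The MXD1 differences and the net MXD1 value at 5 hr share the sgNS DMSO libraries of 5 hr.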

How the results depend on the processing

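A test was counted as kept if it stayed on its side of the threshold and, where it had passed, kept its direction. Direction was not compared for tests that passed in neither fit. RLE scaling and library sizes without genes of mitochondrial DNA kept 284 of 284 tests of network genes, DESeq2 275, 1 fit of all libraries 277, and no filter on low counts 276. Leaving out 1 library kept 5858 such results, lost 69 and added 33. The replicate block kept 279 and added 5 calls. Deviations of same-numbered libraries had a median correlation of 0.013 over 34 pairs (-0.107 to 0.301, 8 of them over 0.1). Over 68 pairs of different number the median was -0.0125. The numbers were not taken to pair libraries in the main tests. With the replicate block 15 tests passed with DOX, 7 net of sgNS, 5 between the guides and 27 with time. The test of TPM with limma on log2(TPM + 1) kept 221, and it understates changes of scarce genes such as MXD1. It changed the sign of MYC with DOX in sgNS cells at 5 hr (0.0807), MXD3 with DOX in sgZBTB11 #1 cells at 5 hr (0.0353), and MXI1 with DOX in sgNS cells (-0.19) and net of sgNS (0.25) at day 5, and of RUVBL2 (0.0201), KAT2A (0.17) and HDAC1 (0.0227) net of sgNS at day 5. In DMSO cells it changed the sign of sgZBTB11 #1 minus sgNS for MAX at day 5 (-0.25), MNT at day 3 (-0.25) and MXD4 at days 1 (0.0318) and 3 (-0.16), and of sgZBTB11 #2 minus sgNS for MYC at 5 hr (0.00571). With time it changed the sign of MGA at day 1 (0.0308), MNT (-0.0468) and MXD4 (-0.22) at day 5 relative to day 3, and of the differences from sgNS cells between 5 hr and day 5 of MYC (-0.0812) and MXD4 (-0.0849) in sgZBTB11 #1 and MXD4 (-0.22) in sgZBTB11 #2 cells. Relative to the median of all genes, 0 of the 13 DOX calls, 0 of the 7 net calls and 1 of the 27 time calls changed sign. The count of guide differences was 4 in edgeR and 2 in TPM, and that of time differences between lines 5 and 10, with 3 to 5 when 1 library was left out. MYC-activated targets lower with DOX at day 1 numbered 22 in 1 fit of all libraries and 2 in TPM for sgNS, 32 and 6 for sgZBTB11 #1, and 17 in DESeq2 and 8 in TPM for sgZBTB11 #2; leaving out 1 library gave 8 to 20 for sgNS. The causes were not tested. Groups of 2 or 3 libraries and the 27 to 207 counts of MXD1 limited the precision.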
